A study of Mus musculus with 11 samples.

Results

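Interferon-stimulated genes are the genes that cells switch on when interferon reaches them. A list of 35 of them was followed here in the inflamed joint lining of the mouse. The list was chosen by gene name, with earlier results of these data known. Of the 35 genes, 33 were in the deposited table of 18804 genes and all 33 were among the 14892 genes tested. Mx1 and Mx2 were not analysed here. The 33 genes fall into 7 groups by role: transcription factors (4 genes), RNA and DNA sensors (5), IFIT proteins (4), the OAS family (5), the ISG15 pathway (3), PARP and DTX3L proteins (3) and other effectors (9).

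RNA was sequenced from the synovial membrane, the lining of the joint, of DBA/1 mice, an inbred strain susceptible to arthritis after immunisation against collagen (collagen-induced arthritis, CIA). The 11 libraries fall into 4 groups, all of the same strain and tissue and with no other allele or agent in the labels: sham mice on a regular diet (n = 3), CIA mice on a regular diet (n = 3), sham mice on a high-fat diet (n = 2) and CIA mice on a high-fat diet (n = 3). The growth notes put all 11 samples on the regular diet, which contradicts the treatment label of 5 of them, and the groups used here follow the treatment labels. The labels give neither age nor the number of animals behind a library, and nothing in them says that libraries a, b and c came from separate mice, so each p-value reflects no more than the spread among these 11 libraries, which may be technical.

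Total counts were 13677638 to 17631167 per library. All 12 synovial fibroblast marker genes had counts in every library. Summed marker levels differed between libraries of the same group: the 13 neutrophil markers summed to 35.6 and 2507 CPM (counts scaled to a common library total with TMM factors) in the 2 high-fat sham libraries, and to 1494, 2350 and 8735 CPM in the high-fat CIA libraries c, a and b. Skeletal muscle markers (8 genes) summed to 899 CPM in regular-diet sham replicate c and to 4.06 and 4.25 CPM in replicates a and b, to 55.2 and 173 CPM in high-fat sham and to 2.23 to 33.9 CPM in CIA libraries. Erythroid markers (8 genes) summed to 1294 to 7300 CPM in sham and to 137 to 1625 CPM in CIA libraries. Averaged over diets, all 8 genes of each list had negative values for CIA against sham. Of them, 4 and 3 were called lower, beside 10.8% of all tested genes. The part of these cells in the levels described here was not tested. Adipocyte markers (8 genes) summed to 26638 to 38847 CPM in regular-diet sham and to 7160 to 22283 CPM in regular-diet CIA libraries. On the high-fat diet they summed to 13862 to 16972 CPM in sham and to 1523 to 6035 CPM in CIA libraries. All 8 had negative averaged values, and 6 were called lower, beside the same 10.8%. Their part was not tested either. In tissue RNA of this kind, a change in the number of cells of a type and a change in RNA per cell cannot be told apart.

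Type I interferons bind a receptor made of IFNAR1 and IFNAR2, and the kinases JAK1 and TYK2 then activate transcription factors. STAT2 and IRF9 are subunits of the resulting complex, ISGF3, which binds the interferon-stimulated response element (ISRE) in the promoters of its target genes. Interferon gamma acts through a different promoter element, the gamma-activated sequence (GAS). Many of the induced proteins detect or degrade viral nucleic acid or block translation, and an interferon signature has been described in blood and synovium of some people with rheumatoid arthritis.

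Promoter sequences (250 bases before to 50 after a transcript start, RefSeq, GRCm38.p6) were matched for 25 of the 35 genes. The ISRE core was searched on both strands as 2 GAAA blocks with any 2 bases between them, overlapping matches included. It was found in 11 of the 25 promoters (44.0%) and in 3.99% of the 27025 genes that have such a window. The GAS core, TTC and GAA with any 3 bases between them, was found in 7 of 25 (28.0%) and in 9.55% of all genes. The 11 genes with an ISRE core were Ifit1, Ifit3, Ifit3b, Isg15, Oas1a, Oas3, Stat2, Eif2ak2, Ifih1, Bst2 and Rsad2. The windows of Ifi44, Irf9, Oasl2, Dtx3l and Irf7 were among those that did not hold the ISRE letters.

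Stretches of 110 bases from 6 promoters with an ISRE core are shown because these genes behaved differently in the libraries described next, and that of Irf1 because it holds the GAS core instead. Capitals mark the ISRE core matches, and in Irf1 the GAS core. All are written 5′ to 3′ along the gene. Isg15 is chr4:156200832-156200941 on the minus strand, with 3 matches, the nearest 66 bases before the start. Oas3 is chr5:120777670-120777779, minus strand, with 1 match 75 bases before the start, and Oas1a is chr5:120907526-120907635, minus strand, with 2 matches, the nearest 14 bases before it. Stat2 is chr10:128270248-128270357, plus strand, with 1 match 222 bases before the start. Ifit1 is chr19:34640740-34640849, plus strand, with 2 matches, the nearest 85 bases before the start. Rsad2 is chr12:26456508-26456617, minus strand, with 1 match 120 bases before the start, and Irf1 is chr11:53769879-53769988, plus strand, with its GAS core 90 bases before the start. Distances are counted from the transcript start used for the promoter window, which lies 25 bases inside the RefSeq gene span for Oas3, 19 bases inside it for Oas1a, and at the end of the span for the other 5.
Isg15: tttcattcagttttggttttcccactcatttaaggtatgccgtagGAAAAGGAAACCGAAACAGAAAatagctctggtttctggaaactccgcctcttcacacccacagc
Oas3: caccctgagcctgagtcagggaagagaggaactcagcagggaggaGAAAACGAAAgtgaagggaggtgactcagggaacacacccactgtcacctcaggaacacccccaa
Oas1a: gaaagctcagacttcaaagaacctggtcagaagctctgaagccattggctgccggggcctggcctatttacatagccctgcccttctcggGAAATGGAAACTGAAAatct
Stat2: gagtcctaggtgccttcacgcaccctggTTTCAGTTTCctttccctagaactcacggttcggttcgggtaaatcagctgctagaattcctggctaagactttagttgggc
Ifit1: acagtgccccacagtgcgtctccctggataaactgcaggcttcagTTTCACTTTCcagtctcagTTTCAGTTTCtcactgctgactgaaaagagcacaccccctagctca
Rsad2: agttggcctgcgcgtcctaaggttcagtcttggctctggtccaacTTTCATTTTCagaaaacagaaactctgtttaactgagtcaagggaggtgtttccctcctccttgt
Irf1: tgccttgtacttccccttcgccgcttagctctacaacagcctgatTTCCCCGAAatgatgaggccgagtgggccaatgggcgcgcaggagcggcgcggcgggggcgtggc

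Several of the genes lie next to each other in the genome (RefSeq GRCm38.p6). The 4 IFIT genes share chr19:34550550-34650009. Oas2, Oas3 and Oas1a lie at chr5:120730333-120907544, and Oasl2 and Oasl1 at chr5:114896926-114937911. Rsad2 and Cmpk2 are neighbours at chr12:26442743-26479837, and Parp14, Dtx3l and Parp9 lie at chr16:35831892-35972621, where the ends of Dtx3l and Parp9 overlap on opposite strands. The counts of some genes are uncertain because near-identical copies could share their reads. Of the 50-base words in the transcripts of Oas1a, 57.6% also occur in Oas1g, and 51.2% of those in Ifit3 occur in Ifit3b.

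In sham mice the genes differed widely in level. In regular-diet sham mice the most abundant per length was Ifi27, a small hydrophobic protein of membranes, at 932 ± 178 TPM (transcript level scaled by gene length and library total, mean ± SD, n = 3), followed by Irf1 at 101 ± 6.53 TPM and Bst2, which tethers budding virus particles to the cell, at 78.9 ± 3.30 TPM. The least abundant were Oas3 at 0.133 ± 0.0503 TPM, Oasl1 at 1.27 ± 0.160 TPM and Ifi44 at 2.34 ± 0.822 TPM. On the same scale the gap between Ifi27 and Irf1 exceeded their spread, whereas Oas2, at 2.87 ± 0.501 TPM, and Ifi44 did not differ beyond theirs.

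Over both diets, arthritic synovium had higher levels of a defined portion of the list: 4 of the 5 OAS family genes, the PARP and DTX3L proteins, most RNA sensors, the ISGF3 subunits Stat2 and Irf9, and Ifi44, Rtp4, Zbp1 and Herc6. Averaged over both diets, 16 of the 33 genes rose and 1, Ifi27, fell, whereas 13.0% of all tested genes rose and 10.8% fell (edgeR quasi-likelihood test, Benjamini-Hochberg adjusted p under 0.05 over all genes). The median log2 fold change of the 33 genes was 0.78, beside 0.04 over all tested genes, and 30 of the 33 had a positive value. In 14 of the 33 genes every one of the 6 CIA libraries lay above every one of the 5 sham libraries, which held for 4.75% of all genes tested. The averaged calls rested on the small high-fat sham group: without high-fat sham replicate b none of the 33 was called, with Ifi44 at an adjusted p of 0.0568 (range over all alternatives 1.63e-18 to 0.0568), and only 0.0131% of all genes were. With high-fat sham replicate a left out instead, not all of the calls were lost. The median log2 fold change of the 33 was 0.82 without replicate a and 0.75 without replicate b of that group. Leaving out any 1 library outside the high-fat sham group gave 13 to 21 called genes, beside 13.2% to 29.4% of all genes.

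**Figure D1:**
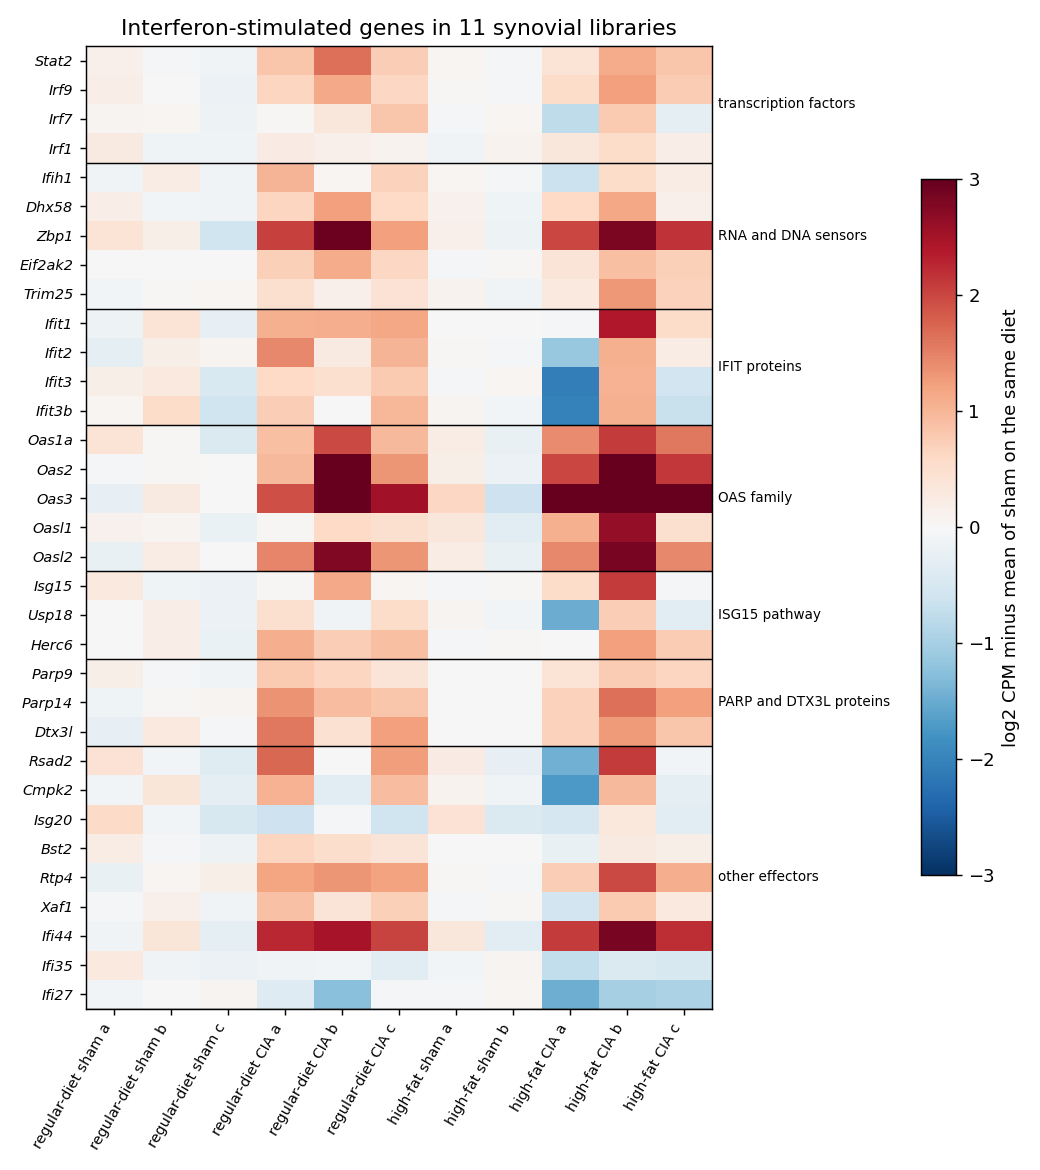
Level of each of the 33 genes (rows, grouped by role) in each of the 11 libraries (columns), as log2 CPM minus the mean of the sham libraries on the same diet; colours saturate at ±3. The OAS family, Zbp1 and Ifi44 are red in all 6 CIA libraries except for Oasl1 in regular-diet CIA replicate a, whereas Ifit2, Ifit3, Ifit3b, Rsad2, Cmpk2 and Usp18 are blue in high-fat CIA replicate a and red in replicate b.

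Of the role groups, the OAS family had the highest median averaged log2 fold change, 2.03. These enzymes make short oligoadenylates when they meet double-stranded RNA, which in turn activate the nuclease RNase L. Oas3 was low in sham joints, with 0.318, 0.508 and 0.393 CPM in regular-diet sham libraries a, b and c and 1.01 and 0.350 CPM in high-fat sham replicates a and b. It reached 1.89, 6.61 and 2.89 CPM in regular-diet CIA libraries a, b and c and 10.4, 53.6 and 6.07 CPM in high-fat CIA libraries a, b and c. Every CIA library was therefore above every sham library, but replicate b of the high-fat group was far above the other 2. Averaged over diets, Oas3 rose by 4.13 ± 0.72 on the log2 scale (log2 fold change ± SE, edgeR adjusted p = 0.00772).

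Oas2 was at 7.0, 7.36 and 7.21 CPM in regular-diet sham and at 6.94 and 5.37 CPM in high-fat sham libraries. It was at 14.3, 60.9 and 18.2 CPM in regular-diet CIA libraries a, b and c and at 24.8, 49.3 and 27.1 CPM in the high-fat ones. Again no CIA library overlapped with sham, and the averaged log2 fold change was 2.28 ± 0.40 (edgeR adjusted p = 0.00806). Oasl2, an OAS-like protein with ubiquitin-like domains, was at 12.2, 16.8 and 14.2 CPM in regular-diet sham, 17.7 and 13.1 CPM in high-fat sham, and 39.5, 98.4 and 35.8 CPM in regular-diet CIA and 41.4, 110.1 and 41.8 CPM in high-fat CIA libraries a, b and c. Its averaged log2 fold change was 2.03 ± 0.37 (edgeR adjusted p = 0.00859). In Oas2 and Oasl2 alike, replicate b was the highest library of both CIA groups.

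Oas1a had 5.73, 4.38 and 3.15 CPM in regular-diet sham, 6.09 and 4.44 CPM in high-fat sham, 8.08, 17.4 and 8.55 CPM in regular-diet CIA and 14.1, 22.5 and 15.9 CPM in high-fat CIA libraries. It rose by 1.55 ± 0.28 on the log2 scale (edgeR adjusted p = 0.00856), a value that includes reads its copy Oas1g may share. Oasl1, which in mice restrains translation of Irf7, was the 1 family member that did not pass the test, at a log2 fold change of 1.08 and an adjusted p of 0.0847. Its libraries overlapped, with 0.934 to 1.83 CPM in sham and 1.70 to 8.20 CPM in CIA mice.

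**Figure D2:**
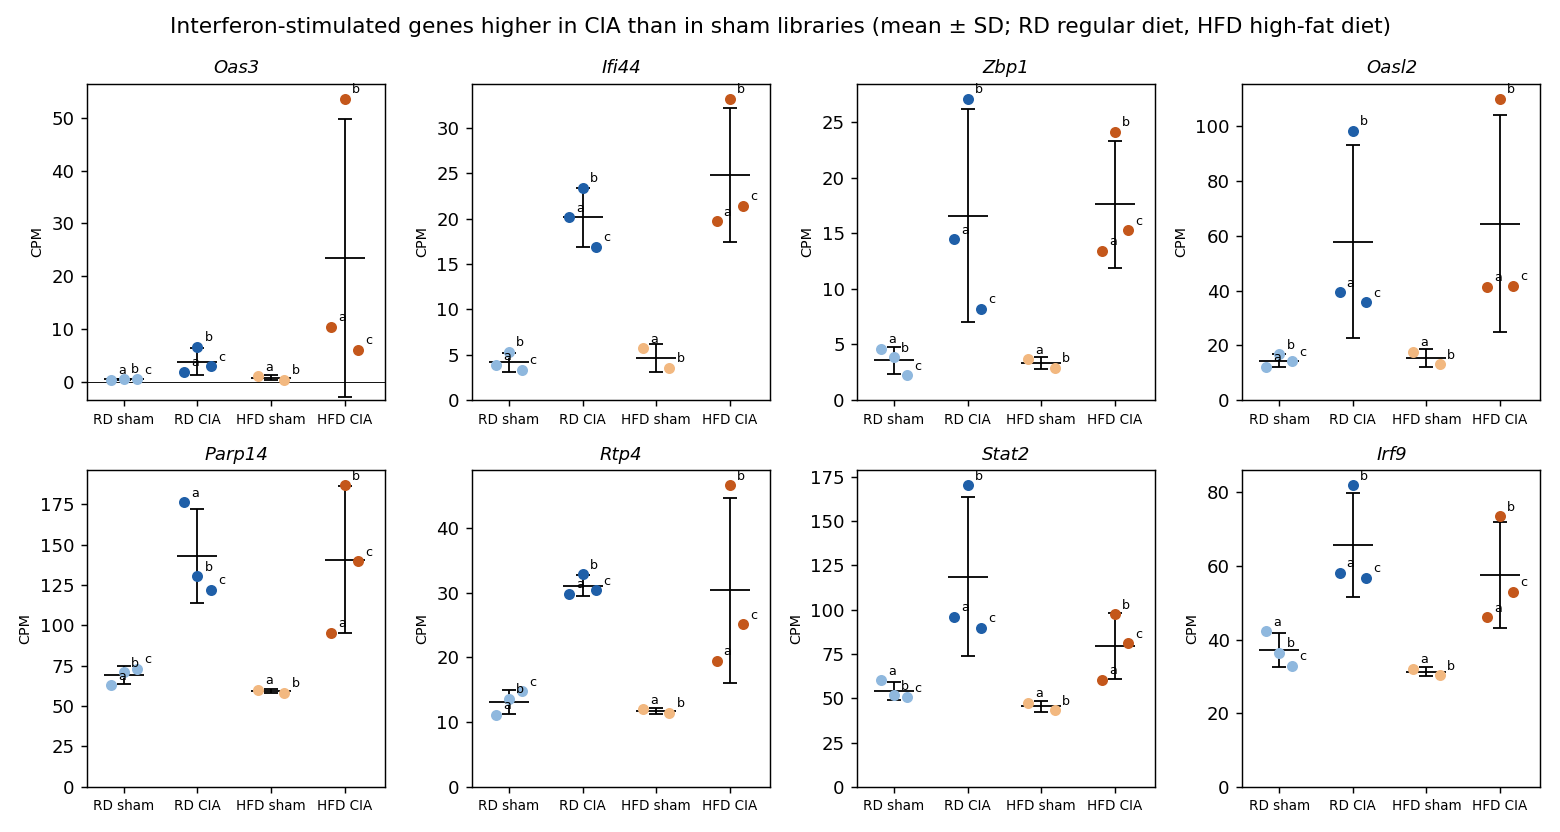
CPM (linear axis) of 8 genes in each library, labelled by replicate letter, for sham and CIA mice on a regular diet (RD) and a high-fat diet (HFD); horizontal bars are group means and whiskers ± SD, which reach below 0 for Oas3. Each of the 8 has all 6 CIA libraries above all 5 sham libraries, by a narrow margin for Stat2, where the highest sham library is at 60.1 CPM and the lowest CIA library at 60.3 CPM.

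Of the effectors outside these families, Ifi44 and Rtp4 rose. Ifi44, an antiviral protein that restrains cell growth in culture, had 3.82, 5.33 and 3.34 CPM in regular-diet sham, 5.72 and 3.56 CPM in high-fat sham, 20.1, 23.4 and 16.9 CPM in regular-diet CIA and 19.7, 33.2 and 21.4 CPM in high-fat CIA libraries. It had the lowest adjusted p of the 33 genes, at a log2 fold change of 2.34 ± 0.23 (edgeR adjusted p = 0.00467). The gap between its sham and CIA libraries was wide on both diets. Rtp4, a chaperone that in mice also dampens interferon induction, had 11.1, 13.6 and 14.8 CPM in regular-diet sham and 12 and 11.4 CPM in high-fat sham libraries. In CIA mice it had 29.9, 32.9 and 30.4 CPM on the regular and 19.5, 46.6 and 25.2 CPM on the high-fat diet, again with no overlap. Its log2 fold change was 1.30 ± 0.22 (edgeR adjusted p = 0.00724).

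Among the 5 sensors, 4 rose. Zbp1, which detects nucleic acid in the Z conformation and can trigger cell death, had 4.61, 3.87 and 2.23 CPM in regular-diet sham, 3.69 and 2.92 CPM in high-fat sham, 14.5, 27.1 and 8.23 CPM in regular-diet CIA and 13.4, 24.1 and 15.3 CPM in high-fat CIA libraries. It rose by 2.31 ± 0.36 on the log2 scale (edgeR adjusted p = 0.00634), with no overlap between sham and CIA mice. Eif2ak2 encodes PKR, which halts translation when it binds double-stranded RNA. It was steady in sham libraries, at 43.0 to 45 CPM, and was at 57.3 to 94.0 CPM in CIA libraries, for a log2 fold change of 0.76 ± 0.13 (edgeR adjusted p = 0.00776). Dhx58, the RNA helicase LGP2, rose by 0.78 ± 0.22 (adjusted p = 0.0308), and Trim25, a ubiquitin ligase that in human cells activates RIG-I, by 0.60 ± 0.18 (adjusted p = 0.0356). Ifih1, the RNA sensor MDA5, had a log2 fold change of 0.38 and an adjusted p of 0.252. The calls of Dhx58 and Trim25 were lost with several single libraries left out, the former without regular-diet sham replicates b or c, high-fat CIA replicate b or either high-fat sham library, the latter without either high-fat sham library, any regular-diet sham library or regular-diet CIA replicates a or c.

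The 3 PARP and DTX3L genes all rose. Parp9 and Dtx3l form a complex that joins ADP-ribosylation to ubiquitination, and Parp14 transfers single ADP-ribose units. Parp14 had 62.8, 71.1 and 73.2 CPM in regular-diet sham, 60.1 and 58.3 CPM in high-fat sham, 176.3, 130.3 and 122.0 CPM in regular-diet CIA and 95.5, 186.6 and 139.7 CPM in high-fat CIA libraries, and rose by 1.15 ± 0.18 (edgeR adjusted p = 0.00664). Dtx3l had 26.1, 38.3 and 29.8 CPM in regular-diet sham, 33.9 and 33.2 CPM in high-fat sham, 93.6, 42.8 and 72.6 CPM in regular-diet CIA libraries a, b and c and 53.9, 82.0 and 59.9 CPM in high-fat CIA libraries a, b and c. Its log2 fold change was 1.06 ± 0.22 (edgeR adjusted p = 0.0113), and the call was lost without high-fat sham replicate a (adjusted p = 0.0513, range over all alternatives 0.00012 to 0.0779). Parp9 rose by 0.61 ± 0.12 (edgeR adjusted p = 0.0100). In this group regular-diet CIA replicate a, not b, was the highest library of its diet.

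The transcription factors divided into those of ISGF3 and the others. Stat2 had 60.1, 51.7 and 50.5 CPM in regular-diet sham, 47.5 and 43.3 CPM in high-fat sham, 96.0, 170.0 and 89.7 CPM in regular-diet CIA and 60.3, 97.5 and 81.0 CPM in high-fat CIA libraries. It rose by 0.97 ± 0.20 on the log2 scale (edgeR adjusted p = 0.0113). Irf9, its DNA-binding partner, had 42.2, 36.4 and 32.8 CPM in regular-diet sham, 32.1 and 30.4 CPM in high-fat sham, 58.2, 81.9 and 56.8 CPM in regular-diet CIA and 46.0, 73.5 and 53.0 CPM in high-fat CIA libraries. It rose by 0.85 ± 0.16 (edgeR adjusted p = 0.00956), and neither subunit overlapped between sham and CIA mice.

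Irf7, the factor that amplifies type I interferon production, did not pass the test. It had 38.7, 38.2 and 33 CPM in regular-diet sham, 32.6 and 35.8 CPM in high-fat sham, 37.2, 46.1 and 64.7 CPM in regular-diet CIA and 20.1, 58.7 and 27.7 CPM in high-fat CIA libraries. Of the high-fat CIA libraries, 1 lay above and 2 lay below both sham libraries. The averaged log2 fold change was 0.24 (edgeR adjusted p = 0.530), and it was -0.04 without high-fat CIA replicate b. Irf1, which responds to interferon gamma through its GAS element, had 145.2, 135.8 and 131.9 CPM in regular-diet CIA and 102.4, 117.2 and 93.1 CPM in high-fat CIA libraries, beside 111.4 to 146.6 CPM in regular-diet sham and 75.3 and 86.3 CPM in high-fat sham libraries. Its averaged log2 fold change was 0.26 (edgeR adjusted p = 0.138).

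In a second portion of the list, high-fat CIA libraries lay both below and above the sham libraries of their diet. The IFIT proteins bind foreign RNA and block its translation, and Rsad2 (viperin) makes a nucleotide that ends viral RNA chains, with the neighbouring Cmpk2 supplying nucleotides. None of these 6 genes passed the test averaged over diets. Their ratio of highest to lowest high-fat CIA library ran from 4.58 (Ifit2) to 11.9 (Rsad2). A wide spread was not limited to them: the ratio was 8.84 for Oas3, 4.89 for Usp18, 4.71 for Oasl1 and 4.44 for Isg15, and lower for the other genes. Ifit3 had 52.4, 56.7 and 34.0 CPM in regular-diet sham, 71.0, 64.8 and 80.7 CPM in regular-diet CIA, 57.9 and 62.9 CPM in high-fat sham and 14.3, 125.5 and 40.4 CPM in high-fat CIA libraries a, b and c. Replicates a and c were thus below both sham libraries of their diet and replicate b above both. The log2 fold change was -0.01 on the high-fat and 0.60 on the regular diet, and Ifit3b, whose reads cannot be fully told apart from those of Ifit3, gave -0.01 and 0.57. Ifit3b had 8.91, 12.6 and 5.64 CPM in regular-diet sham, 14.5, 8.64 and 17.2 CPM in regular-diet CIA, 13.7 and 12.1 CPM in high-fat sham and 3.08, 27.2 and 8.11 CPM in high-fat CIA libraries.

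Rsad2 had 13.4, 9.33 and 7.61 CPM in regular-diet sham, 33, 9.88 and 23.7 CPM in regular-diet CIA, 17.2 and 12.1 CPM in high-fat sham and 5.24, 62.1 and 13.6 CPM in high-fat CIA libraries. Cmpk2 followed the same order of libraries within both CIA groups, at 26.8, 10.3 and 24.9 CPM on the regular diet and 5.0, 33.6 and 14.1 CPM on the high-fat diet. Rsad2 had an averaged log2 fold change of 1.01 ± 0.57 (edgeR adjusted p = 0.218), and its sham and CIA libraries overlapped on both diets. Ifit1 had 6.36, 9.39 and 5.97 CPM in regular-diet sham, 15.1, 15.2 and 15.9 CPM in regular-diet CIA, 7.48 and 7.30 CPM in high-fat sham and 7.10, 39.8 and 10.8 CPM in high-fat CIA libraries. On the regular diet its groups did not overlap, whereas high-fat CIA replicate a was below both sham libraries. The averaged value was 1.23 ± 0.41 (edgeR adjusted p = 0.0523), and the gene was called without high-fat CIA replicate a (adjusted p = 0.0176), b (0.0451) or c (0.0438), within a range of 0.0117 to 0.176 over all alternatives.

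**Figure D3:**
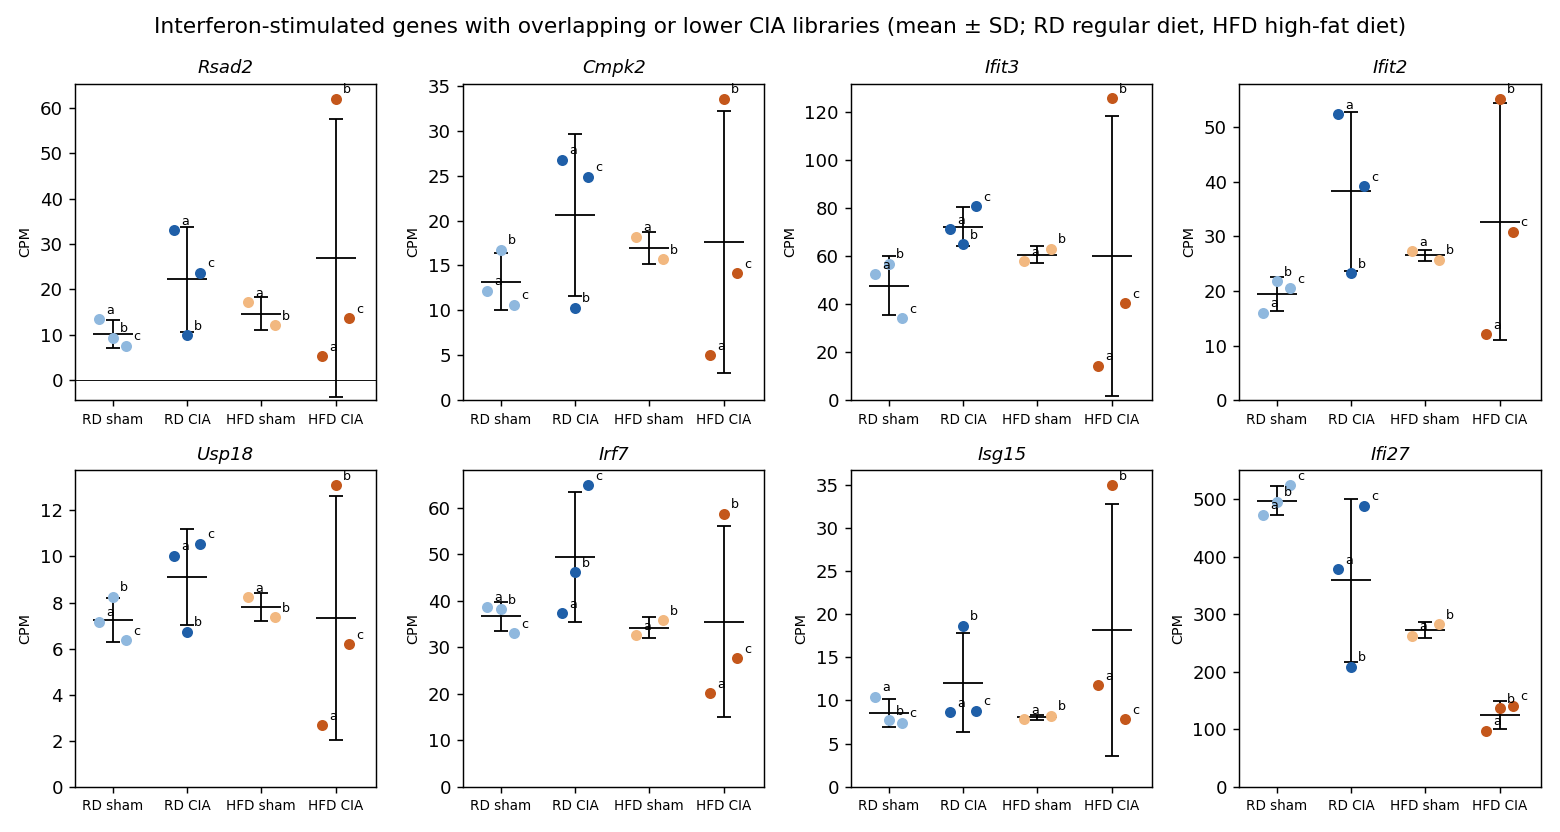
CPM (linear axis) of 8 genes in each library, labelled by replicate letter, with group means and ± SD whiskers, which reach below 0 where the SD exceeds the mean (RD regular diet, HFD high-fat diet). In the first 6 panels high-fat CIA replicate a is the lowest of the 11 libraries and replicate b is above both high-fat sham libraries, and Ifi27 is lower in the 3 high-fat CIA libraries (97.8 to 141.0 CPM) than in any other.

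The ISG15 pathway was mixed. Isg15, a ubiquitin-like protein attached to other proteins, had 10.4, 7.74 and 7.41 CPM in regular-diet sham, 8.65, 18.6 and 8.81 CPM in regular-diet CIA, 7.85 and 8.23 CPM in high-fat sham and 11.8, 34.9 and 7.87 CPM in high-fat CIA libraries. Replicate b was the only library far above sham on each diet, and the averaged log2 fold change of 0.84 ± 0.39 did not pass (edgeR adjusted p = 0.143). Usp18, which removes ISG15 and dampens the interferon receptor, had 7.16, 8.25 and 6.36 CPM in regular-diet sham, 8.23 and 7.36 CPM in high-fat sham, 10.04, 6.74 and 10.5 CPM in regular-diet CIA and 2.68, 13.1 and 6.19 CPM in high-fat CIA libraries. Its averaged log2 fold change was 0.12 (edgeR adjusted p = 0.831) and turned to -0.24 without high-fat CIA replicate b. Herc6, the ISG15 ligase of mice, rose by 0.83 ± 0.21 (edgeR adjusted p = 0.0209), a call lost without either high-fat sham library, regular-diet sham replicates a or c, or regular-diet CIA replicate a.

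Ifi27 went the other way. It had 472.9, 495.8 and 523.9 CPM in regular-diet sham, 378.6, 208.9 and 488.9 CPM in regular-diet CIA, 262.8 and 282.3 CPM in high-fat sham and 97.8, 137.1 and 141.0 CPM in high-fat CIA libraries. High-fat CIA libraries were below all others, and regular-diet CIA libraries overlapped with sham. The averaged log2 fold change was -0.80 ± 0.22 (edgeR adjusted p = 0.0268), a call lost without either high-fat sham library, any regular-diet sham library or regular-diet CIA replicate a. Summed adipocyte markers were also lowest in high-fat CIA libraries, at 1523, 6035 and 5191 CPM in libraries a, b and c, and their part in the Ifi27 result was not tested. The value of Ifi35, which pairs with the protein NMI, was -0.37 on the log2 scale (adjusted p = 0.0582). Isg20, an RNA exonuclease, Bst2 and Xaf1, a promoter of apoptosis, had values of -0.33, 0.30 and 0.47 and did not pass.

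Diet by diet, fewer genes passed. On the regular diet none of the 33 was called higher or lower by edgeR's adjusted p, beside 0.0269% and 0% of all tested genes. Their median log2 fold change was 0.82, beside 0.06 over all genes. At an unadjusted p under 0.05, 17 of the 33 were higher, beside 9.99% of all genes, and in 21 of 33 the 3 CIA libraries lay above the 3 sham libraries, beside 12.2%. DESeq2 called 13 of the 33, beside 5.46% of all genes it gave an adjusted p, and limma voom called 0, beside 0.00672%. The authors' deposited table lists 13 as higher at q under 0.05, beside 1.62% of its genes. Ifi44 came nearest in the edgeR fit, at 2.27 ± 0.30 (adjusted p = 0.0598), and was called without regular-diet CIA replicate c or without high-fat CIA replicate a.

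On the high-fat diet 9 of the 33 genes rose and none fell, beside 5.06% and 5.75% of all tested genes. At an unadjusted p under 0.05, 17 were higher and 2 lower, beside 15.7% and 15.1% of all genes. The 9 were Oas1a, Oas2, Oas3, Oasl2, Ifi44, Zbp1, Parp14, Rtp4 and Irf9. The largest change was that of Oas3, at 5.07 ± 1.10 (edgeR adjusted p = 0.0264), followed by Oas2 at 2.45 ± 0.61 (adjusted p = 0.0363). The median log2 fold change of the 33 was 0.75, beside 0.02 over all genes. In 17 of 33 the CIA libraries lay above both sham libraries, beside 27.5% of all genes, and in 2, Ifi27 and Ifi35, they lay below, beside 27.7%. The authors' deposited table lists 13 of the 33 as higher and 1 as lower at q under 0.05, beside 11.1% and 8.55% of its genes. The count of 9 fell to 0 without either high-fat sham library, when 0% of all genes were called. It fell to 2 without high-fat CIA replicate b (2.40% of all genes) and to 3 and 4 without regular-diet sham replicates b and c (3.56% and 4.20%), and it rose to 16 without regular-diet CIA replicate b (25.2%).

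**Figure D4:**
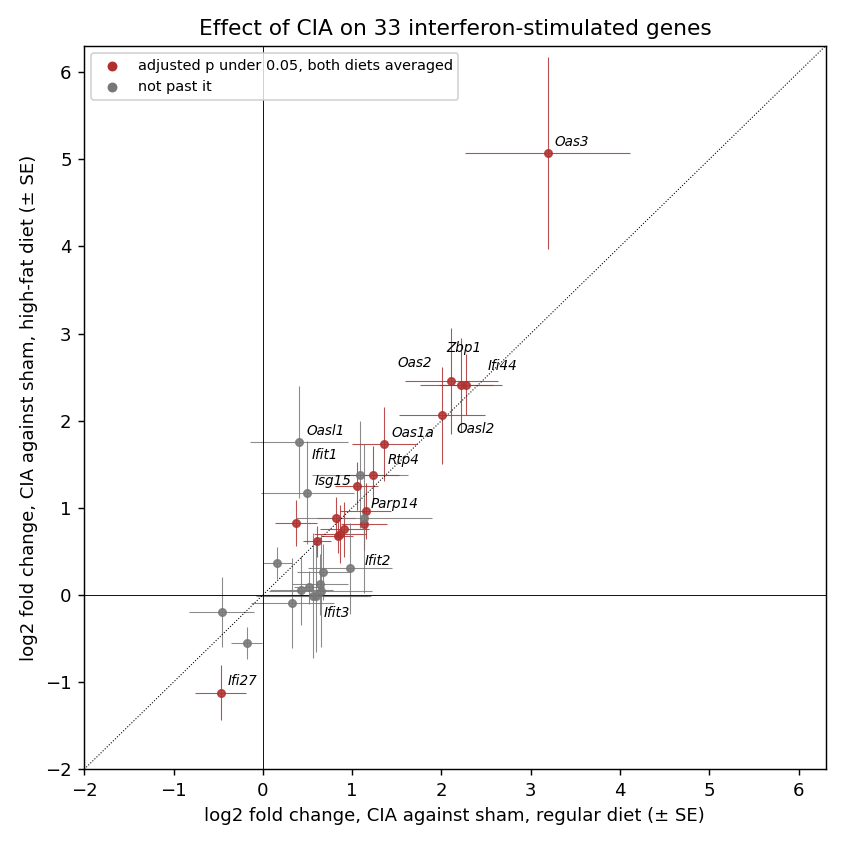
Log2 fold change of each of the 33 genes for CIA against sham on the regular diet (x axis) and on the high-fat diet (y axis), with ± SE whiskers; red points passed the test averaged over both diets and the dotted line marks equal values. Oas3 lies above the line (3.19 and 5.07), and Ifit2 and Ifit3 lie below it.

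The effect of arthritis did not differ detectably between the diets for any of the 33 genes. The interaction test called none of them and 0% of all tested genes, and at an unadjusted p under 0.05 it took 0 of the 33, beside 4.26% of all genes. The smallest adjusted p among the 33 was 0.989. DESeq2 called none of the 33 for the interaction either, beside 0.147% of the genes it gave an adjusted p. In sham mice the diets differed in none of the 33 genes by edgeR's adjusted p, which also called 0% of all genes. There DESeq2 called none of the 33, beside 0.758% of the genes it gave an adjusted p. At an unadjusted p under 0.05, 2 of the 33, Irf1 and Ifi27, differed between the diets in sham mice, beside 7.82% of all genes. Irf1 had 146.6, 111.4 and 111.5 CPM in regular-diet and 75.3 and 86.3 CPM in high-fat sham libraries, a log2 difference of -0.61 ± 0.18 (edgeR adjusted p = 0.483). The authors' deposited table lists none of the 33 as higher and these same 2 as lower on the high-fat diet in sham mice at q under 0.05, Ifi27 at a log2 value of -0.85 (q = 1.42e-09) and Irf1 at -0.59 (q = 0.0245), beside 3.47% and 4.33% of its genes.

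In CIA mice, none of the 33 was higher and 1, Ifi27, was lower on the high-fat than on the regular diet, beside 1.05% and 2.89% of all tested genes. The log2 difference of Ifi27 was -1.52 ± 0.29 (edgeR adjusted p = 0.0346). This call was lost when any 1 library other than regular-diet CIA replicate b was left out. In those of these fits that kept both high-fat sham libraries, 0% of all genes were called. The log2 difference of Ifi27 stayed between -1.79 and -1.21 over all alternatives. Without regular-diet CIA replicate b 4 of the 33 were called, beside 21.8% of all genes. Oas3 had a log2 difference of 2.62 ± 0.80 and did not pass (edgeR adjusted p = 0.0871). The authors' deposited table lists Oas3 as higher on the high-fat diet in CIA mice, at a log2 value of 2.66 (q = 0.0384), and Ifi27 as lower, at -1.49 (q = 0.0128), beside 1.56% and 2.34% of its genes.

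The 6 arthritic libraries differed in how much of the list they showed. In regular-diet CIA libraries a, b and c, 26, 24 and 28 of the 33 genes lay above every sham library of that diet. The numbers were 18, 30 and 23 for high-fat CIA libraries a, b and c, and 14, 2 and 7 genes lay below both sham libraries, beside 44.6%, 45.9% and 44.6% of all tested genes. Between 34.0% and 46.8% of all tested genes lay above sham in these libraries, 46.8% of them in high-fat CIA replicate a. High-fat CIA replicate b was the highest of its group for 32 of the 33 genes, and replicate a the lowest for 28. The same counts were not made over all tested genes, so whether this order is particular to the list cannot be said.

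By role, the mean log2 CPM of the OAS family lay 1.06 to 3.35 above the same-diet sham mean in all 6 CIA libraries, and that of the PARP and DTX3L proteins 0.59 to 1.24 above it. The IFIT mean lay 0.97, 0.46 and 0.99 above sham in regular-diet CIA libraries a, b and c, and -1.32, 1.4 and -0.12 from it in high-fat CIA libraries a, b and c. Within the regular diet, replicate b had the highest OAS mean (2.42) and the lowest IFIT mean (0.46) of the 3 CIA libraries. In high-fat CIA replicate a the OAS mean was 1.95 above sham while the IFIT mean was below it, so the families did not move together from library to library.

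**Figure D5:**
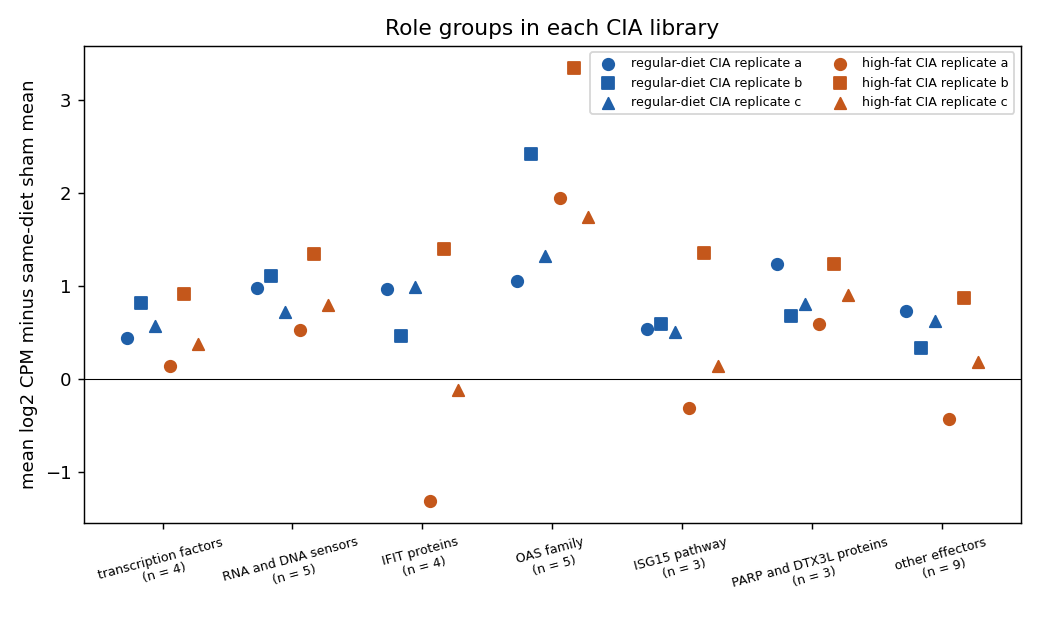
Mean log2 CPM of each role group minus the mean of the sham libraries on the same diet (y axis), for each of the 6 CIA libraries (colour for diet, marker shape for replicate). All 6 points of the OAS family lie above 1, whereas the IFIT points run from -1.32 (high-fat CIA replicate a) to 1.4 (high-fat CIA replicate b).

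Markers of immune cells also varied between these libraries. Neutrophil markers summed to 8735 CPM in high-fat CIA replicate b, beside 2350 and 1494 CPM in a and c, and the 14 macrophage and monocyte markers to 4674, 4090 and 3572 CPM in b, a and c. The macrophage sums were 2564 and 2099 CPM in high-fat sham libraries a and b. On the regular diet they were 2137, 2440 and 1367 CPM in CIA libraries a, b and c and 1197 to 1507 CPM in sham libraries. T and natural killer cell markers, of which 14 of 15 were in the table, summed to 5.89 to 6.95 CPM in regular-diet sham libraries, where up to 3 of them were at 0, and to 16.7 to 36.8 CPM in regular-diet CIA libraries. On the high-fat diet they summed to 5.84 and 14.3 CPM in sham and to 21.7 to 52.1 CPM in CIA libraries. Averaged over diets, edgeR called higher 6 of 14 macrophage, 3 of 13 neutrophil and 7 of 13 tested T and natural killer cell markers. It called none of them lower, beside 13.0% of all tested genes called higher and 10.8% lower. The 9 plasmacytoid dendritic cell markers, of a cell type known for making type I interferon, summed to 142 to 175 CPM in sham and 179 to 255 CPM in CIA libraries over both diets. Most of that sum was Tcf4, a factor other cells also use, at 127 to 153 CPM in sham and 149.9 to 231 CPM in CIA libraries. Of the 9 markers 5 had a positive and 4 a negative averaged log2 fold change, with a median of 0.15. By edgeR's adjusted p, 2 of the 9 were called higher and none lower, beside 13.0% and 10.8% of all tested genes. The more specific marker Siglech was at -0.70 (edgeR adjusted p = 0.058). The part of these cells in the levels of the 33 genes was not tested.

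Of 10 interferon ligand genes listed, only 2 were in the table, Ifnb1 and Ifng, and neither had enough counts to be tested. The levels of the others are not known, because absence from the table does not show that a gene was silent. Ifnb1 had 5 counts in all, every one of them in high-fat sham replicate b. Ifng had 14 counts over the 11 libraries: 4 in regular-diet sham, 9 in regular-diet CIA and 1 in high-fat CIA libraries. None of the 6 receptor genes passed the averaged edgeR test, which called 13.0% of all tested genes higher and 10.8% lower. At an unadjusted p under 0.05 the test took 4 of the 6, 3 of these higher. Of the 14892 tested genes it took 5834, 3191 of these higher. For the receptor chain Ifnar1 the log2 fold change was 0.52 ± 0.19 (adjusted p = 0.0748).

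Downstream of the receptors, 7 of 13 signalling genes rose averaged over both diets and none fell, beside 13.0% and 10.8% of all tested genes. Among the 7 were Jak2, by 1.00 ± 0.20 (edgeR adjusted p = 0.0108), Jak1 by 0.60 ± 0.11 (adjusted p = 0.00948) and Irf8, a factor of the monocyte lineage, by 1.31 ± 0.25 (adjusted p = 0.00909). Of 17 sensors and adaptors outside the list, 8 rose and none fell, beside the same shares of all genes. Among the 8 were Tlr8, an endosomal RNA receptor, by 1.54 ± 0.22 (adjusted p = 0.00614), Samhd1, which depletes nucleotides, by 0.99 ± 0.17 (adjusted p = 0.00781) and Adar, an RNA-editing enzyme, by 0.78 ± 0.15 (adjusted p = 0.00906).

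Of 37 further interferon-stimulated genes tested, 16 rose and 2 fell, beside the 13.0% and 10.8% of all genes. Those that rose included Trim30a, by 1.54 ± 0.20 (edgeR adjusted p = 0.00523), and Slfn9 of the Schlafen family, by 2.13 ± 0.34 (adjusted p = 0.00656). The 2 that fell, Ifi27l2a at -1.94 ± 0.46 (adjusted p = 0.0180) and Ifi27l2b at -2.05 ± 0.46 (adjusted p = 0.0151), belong to the same family as Ifi27. Of 17 genes known for strong induction by interferon gamma, 14 rose and none fell, among them the GTPase Iigp1, by 3.03 ± 0.47 (adjusted p = 0.00634), and Ciita, the regulator of MHC class II genes, by 2.46 ± 0.29 (adjusted p = 0.00523). On the regular diet alone no gene of these lists passed edgeR's adjusted p, beside 0.0269% of all genes called higher and 0% lower. On the high-fat diet 6 of 17 interferon-gamma genes, 5 of 37 further interferon-stimulated genes, 4 of 13 signalling genes and 4 of 17 sensors and adaptors rose, beside 5.06% of all genes, and 2 of the 37 fell, beside 5.75%. The averaged calls of all these lists come from the fit in which leaving out high-fat sham replicate b left 0.0131% of all genes called.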

How the data were processed

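RNA of DBA/1 synovial membrane was extracted with Trizol and made into libraries with a BGI in-house kit, per the labels' protocols; whether the kit keeps strand is not given in the sources used here, so reads of overlapping genes on opposite strands cannot be told apart. The authors deposited expected counts per gene (not normalized; 11.98% not whole at a tolerance of 0.001), FPKM and TPM values, per the file headers. Also in the authors' deposited table are a log2 fold change and a q-value for each gene and comparison. The submitters' processing notes name the build GRCm38.p6 and, without their roles, RSEM 1.2.12, Bowtie2 2.2.5 and DESeq2 1.4.5. Of 18663 genes matched by ID to RefSeq, 333 had the same start in the table as in GRCm38.p6, so printed positions are RefSeq's.

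Expected counts were rounded, 1 empty line was left out, 507 genes had no count, and filterByExpr kept 14892 genes. TMM factors scaled the libraries, and edgeR fitted its robust quasi-likelihood model to all 11 libraries, with 1 mean per group. A gene was called at a two-sided Benjamini-Hochberg adjusted p under 0.05 over all 14892 genes. Each SE was taken as the size of the log2 fold change over the root of its F value. Log2 CPM used a prior count of 2. Replicates differed by more than counting noise (chi-square per degree of freedom 18.4 to 265.8), so precision rests on few libraries per group. The steps were tested on simulated data with changes of 4-fold in 200 of 14778 genes: 66.8% were recovered for CIA on the regular diet, 54.3% on the high-fat diet and 81.9% averaged over both. Simulated counts were drawn independently for each gene and library, without shifts that many genes of a library share. These shares check the steps and do not give the power in the data. On the regular diet Ifi44, at 4.83-fold, was not called in the data.

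The genes, their role groups, the other lists and the tests were chosen with earlier results of these data known. Values in every library were given for the called genes with the largest averaged change (at most 10), for a fixed set of central genes (Irf7, Isg15, Stat2, Irf9, Ifit1, Rsad2, Oas1a, Usp18, Irf1) and for genes whose direction differed between diets, and Ifi27 and Cmpk2 were added after their values were seen. Of each pathway list at most 4 called genes were named. Alternatives were RLE scaling, no filter, a filter of 1 CPM in 3 libraries, DESeq2, limma voom, limma on log2(FPKM + 1) and log2(FPKM + 0.1), a replicate block, a fit of the compared groups alone, and each library left out in turn. Tools were Python 3.11.15 with matplotlib 3.10.9, numpy 2.4.6 and pandas 2.3.3, and R 4.3.3 with DESeq2 1.42.0, edgeR 4.0.16 and limma 3.58.1.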

Additional observations from a re-analysis of the deposited data

How the results depend on the processing

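For CIA against sham, RLE scaling called 0 of the 33 genes on the regular diet, 9 on the high-fat diet and 17 averaged over both, as did TMM. With RLE 0.0269%, 10.6% and 23.7% of all genes were called. The other filters on low counts gave 0, 7 to 10 and 17, beside 0.0219% to 0.0282%, 7.01% to 11.6% and 17.3% to 24.9% of all genes. DESeq2 called more, 13 on the regular diet, 17 on the high-fat diet, 20 averaged and 2 between diets in CIA mice, and it also called more of all genes (5.46%, 21.1%, 30.2% and 13.6%). Limma on log2(FPKM + 0.1) called 1 on the regular diet, Ifi44, beside 0.0537% of all genes. Fitting only the groups compared called 3 on the high-fat diet, 1 between diets in sham mice and 0 between diets in CIA mice. The shares of all genes called were 3.37%, 3.08% and 0%. This fit has no counterpart for the averaged and interaction contrasts, which use all groups. Leaving out each library outside the high-fat sham group in turn gave 0 to 1 on the regular diet and 2 to 16 on the high-fat diet. All-gene shares were 0% to 0.108% and 2.40% to 25.2%. The same fits gave 13 to 21 averaged and 0 to 4 between diets in CIA mice, beside 13.2% to 29.4% and 0% to 21.8% of all genes. Removing either high-fat sham library leaves that group with 1 library, assumed to vary like the others. The calls lost then are given above. Direction turned for the averaged values of Usp18, -0.037 with limma voom and -0.24 to 0.32 over single libraries left out, and of Irf7, -0.043 to 0.38. The cause was not tested. Samples of the same replicate letter did not deviate together, with 5 of 15 same-letter pairs above a correlation of 0.1 (range -0.43 to 0.46), and 11 of 30 pairs with different letters. With the letter as a replicate block, 0 of the 33 were called on the regular diet, 6 on the high-fat diet, 16 averaged, and 0 between diets in CIA mice. The shares of all genes called were 0.0336%, 5.21%, 17.6% and 0%. The 2 high-fat sham libraries limit what can be called on that diet, and the low counts of Oas3 and Oasl1 in sham mice limit their fold changes.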
